A study of Mus musculus with 6 samples.

Results

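Aquaporins are membrane channels for water, and 6 of them, Aqp1, Aqp4, Aqp5, Aqp8, Aqp11 and Aqp12, were followed here in mouse pancreas as the members known from acinar, duct and vessel cells. They were chosen by name, with earlier results of these data known. Each was found once in the count table of every library, among 23337 gene symbols. Whole pancreas of NMRI mice was sampled at postnatal day 7, and RNA sequencing gave 3 control and 3 mutant libraries. Controls had the genotype Ptf1a cre/+, in which 1 copy of the acinar and progenitor factor gene Ptf1a carries the Cre recombinase. Mutants were Ptf1a cre/+ as well and also carried the transgene CAG-loxP-STOP-loxP-Prox1-LacZ, so that they shared the Cre allele with the controls and in addition made Prox1, a homeobox transcription factor, and LacZ from the CAG promoter wherever Cre had removed the stop. Ptf1a is active in pancreas progenitors and acinar cells, and the transgene was thus switched on in that lineage and not in acinar cells alone. The series describes its control samples as pools and its mutant samples as single organs, although the extraction protocol names individual organs for all of them, and pooling cannot be told apart from genotype. Nothing states litters or days, and p-values measure the spread between these 6 samples.

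Pancreatic juice is made in 2 steps. Acinar cells secrete enzymes in a small volume of chloride-rich fluid, and duct cells add most of the water and bicarbonate, with water following salt through aquaporins and between cells. In rodents Aqp8 is known as the channel of the apical acinar membrane, which also lets hydrogen peroxide and ammonia pass. Aqp12 is an acinar member that stays inside the cell, and Aqp11 is its closest relative, found in the endoplasmic reticulum. Aqp1 serves ducts and capillaries and is also abundant in red blood cells and mesothelium, Aqp5 is typical of intercalated ducts and salivary glands, and Aqp4 is best known from astrocytes and from basolateral membranes of secretory epithelia.

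The promoters of Aqp12 and Aqp8 are shown because these 2 members changed in opposite directions. Both windows run from 250 bases before to 50 bases after the RefSeq start site on GRCm38.p6, plus strand, at chr1:93006084-93006383 for Aqp12 and at chr7:123462044-123462343 for Aqp8. Capitals mark matches, on either strand, to the E-box CANNTG, the core of the sites bound by Ptf1a and other basic helix-loop-helix factors, to TTTCCC, the partner box of the Ptf1a complex, and to AAGGTCA, the core bound by the acinar nuclear receptor Nr5a2.
Aqp12: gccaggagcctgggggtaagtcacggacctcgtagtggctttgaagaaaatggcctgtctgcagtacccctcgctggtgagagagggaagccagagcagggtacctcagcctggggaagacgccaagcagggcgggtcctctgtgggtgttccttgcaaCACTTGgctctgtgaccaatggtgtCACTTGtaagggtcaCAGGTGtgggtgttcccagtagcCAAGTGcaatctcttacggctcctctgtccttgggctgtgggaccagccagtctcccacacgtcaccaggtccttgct
Aqp8: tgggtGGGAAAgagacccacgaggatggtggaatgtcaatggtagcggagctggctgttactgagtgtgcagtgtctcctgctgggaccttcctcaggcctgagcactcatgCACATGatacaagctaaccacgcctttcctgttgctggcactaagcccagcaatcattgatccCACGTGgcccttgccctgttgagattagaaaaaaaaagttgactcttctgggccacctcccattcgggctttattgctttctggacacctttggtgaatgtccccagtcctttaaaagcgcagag
The Aqp12 window held 4 matches to the E-box, starting 91, 66, 51 and 28 bases before the start site, and 0 matches to the other 2 motifs. The Aqp8 window held 2 E-box matches and 1 match to TTTCCC on the minus strand, and 0 to AAGGTCA. No letters of 1 motif overlapped those of another in either window. Of 32851 RefSeq promoter windows of the same length, 6.49% held at least 4 E-box matches, 39.6% at least 2, 25.2% at least 1 match to TTTCCC and 4.72% at least 1 to AAGGTCA. A match is a run of letters, and binding was not measured.

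Total counts per library lay between 7304727 and 10773223. Levels are given as CPM, the count of a gene relative to the library total after TMM scaling. Prox1, which the transgene encodes, was at 10.8, 7.84 and 9.12 CPM in controls 1 to 3 and at 25.5, 31.3 and 30.9 CPM in mutants 1 to 3, which fits the labels, and rose with a log2 fold change of 1.67 ± 0.15 (SE, n = 3; edgeR adjusted p = 0.000239). For Ptf1a the log2 fold change was -0.40 ± 0.12 (SE, n = 3), short of the threshold of 0.05 (edgeR adjusted p = 0.161). Control 1 stood apart from the other libraries. It had 7110 counts of Xist and 0 counts of 4 Y-linked genes, against at most 4 and at least 1132 in the other 5. By these counts control 1 held female RNA and the other 5 libraries, every mutant among them, held male RNA. Sex thus differed within the controls. Control 1 also had 97.5 CPM of the trypsinogen gene Gm5771, against 4182 and 4438 CPM in controls 2 and 3. The mutants had 5.71, 10.9 and 8.87 CPM of Gm5771, so that on this gene control 1 lay nearer to them than to the other controls. Mutant 2 held the most lymphoid marker RNA, 24.3 CPM summed over 5 genes against 0.951 to 11.2 CPM in the others. The 2 members called are given with and without each of these libraries.

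Aqp12 was the most abundant of the 6 genes in control pancreas and fell steeply in mutants. Its level was 194.9, 185.5 and 164.6 CPM in controls 1 to 3, from 1299, 1681 and 1715 counts. In mutants 1 to 3 it was 9.13, 7.64 and 14.7 CPM, from 96, 66 and 147 counts. Every mutant library was far below every control library, and mutant 3 kept the most. The 95% Poisson interval of mutant 3, which covers counting error only, ran from 12.4 to 17.2 CPM and lay above those of mutant 1 (7.40 to 11.1 CPM) and mutant 2 (5.91 to 9.72 CPM). The mean dropped from 181.7 ± 15.5 to 10.5 ± 3.70 CPM (SD, n = 3), 17.2-fold lower, with a log2 fold change of -4.11 ± 0.21 (SE) and an edgeR adjusted p of 5.87e-06. It was the ninth largest fall among the 197 genes called lower. The log2 fold change was -4.05 without control 1 (edgeR adjusted p = 8.12e-05) and -3.93 without mutant 2 (2.50e-06). In whole tissue, fewer cells of a type and less RNA per cell cannot be told apart.

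Aqp8, the other acinar channel, moved the opposite way. It was at 52.2, 49.4 and 39.5 CPM in controls 1 to 3 and at 115.2, 114.7 and 122.2 CPM in mutants 1 to 3. The mutant libraries lay close together, and the lowest of them was more than double the highest control. The mean rose from 47.0 ± 6.72 to 117.4 ± 4.16 CPM (SD, n = 3), 2.50-fold, with a log2 fold change of 1.32 ± 0.12 (SE), a 95% interval from 1.06 to 1.58 and an edgeR adjusted p of 0.000238. Without control 1 the log2 fold change was 1.40 (edgeR adjusted p = 0.00102) and without mutant 2 it was 1.35 (0.000237).

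**Figure D1:**
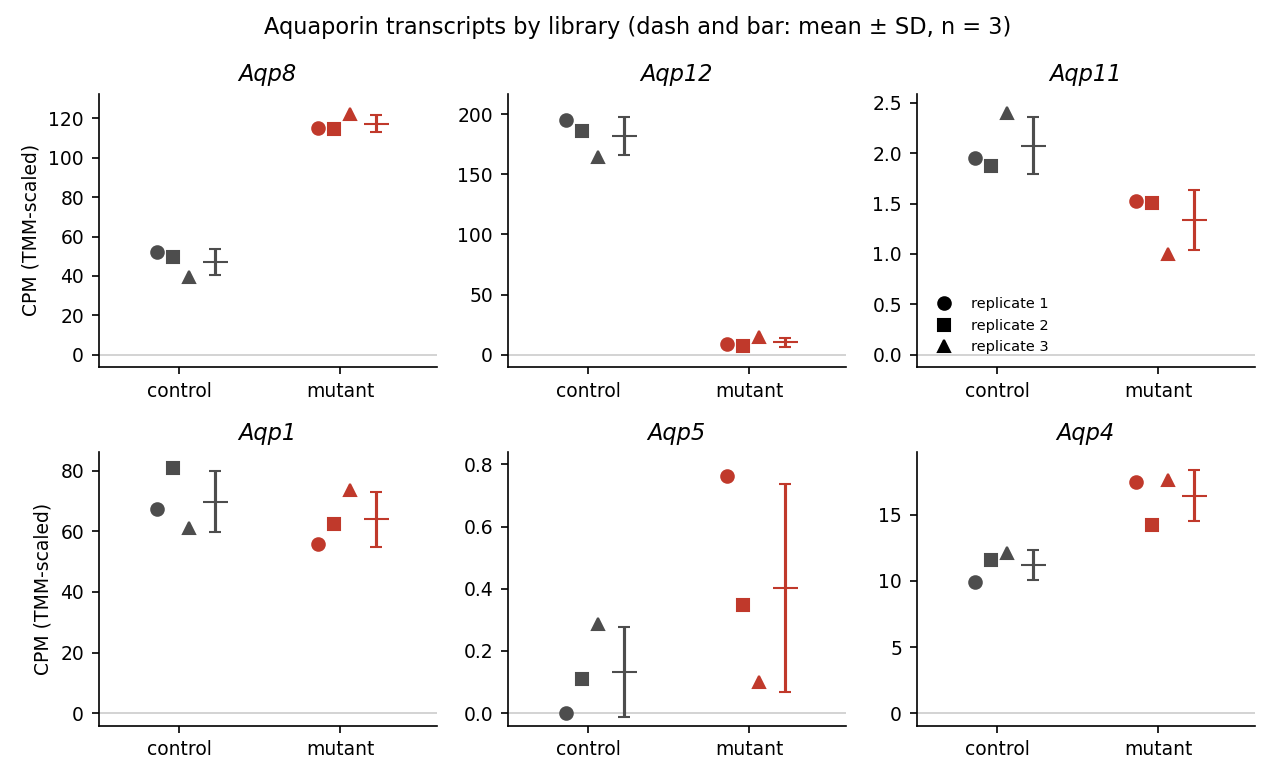
CPM (linear axes) of the 6 aquaporins in each library, with circles, squares and triangles for replicates 1, 2 and 3 and a dash with a bar for the mean ± SD of the group. Aqp8 and Aqp12 show the groups wide apart in opposite directions, Aqp4 and Aqp11 narrowly apart, and Aqp1 and Aqp5 overlapping.

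The balance between these 2 channels was turned over. Aqp12 RNA exceeded Aqp8 RNA 3.73, 3.75 and 4.17 times in controls 1 to 3 on the CPM scale, whereas in mutants 1 to 3 Aqp8 exceeded Aqp12 12.6, 15.0 and 8.33 times. The log2 ratio of Aqp8 to Aqp12, with 0.5 CPM added to each, was -1.94 ± 0.09 (SD, n = 3) in controls. In mutants it was 3.48 ± 0.41, higher by 5.42. The groups lay far apart, and p was 0.1 in an exact two-sided permutation test, the lowest value possible with 3 against 3. The difference was 5.45 without control 1 and 5.24 without mutant 2.

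Levels of different genes were compared per kilobase of exon, which takes out transcript length. In controls Aqp12 stood first with 167.0 ± 14.3 CPM per kb (SD, n = 3), followed by Aqp8 with 29.8 ± 4.25 and Aqp1 with 26.5 ± 3.83, and these 2 neighbours overlapped between libraries. Aqp4 followed with 1.80 ± 0.18 CPM per kb, Aqp11 with 0.220 ± 0.030 and Aqp5 with 0.0511 ± 0.0559. In mutants the order was Aqp8 with 74.2 ± 2.63, Aqp1 with 24.4 ± 3.45, Aqp12 with 9.63 ± 3.40 and Aqp4 with 2.64 ± 0.31 CPM per kb. Aqp5 and Aqp11 came last in mutants, with 0.155 ± 0.129 and 0.142 ± 0.032 CPM per kb, and their order reversed when the longest coding transcript was used as the length. Among 11822 tested genes with a length, Aqp12 ranked 75 in controls and 1864 in mutants by this measure, and Aqp8 ranked 469 in controls and 147 in mutants.

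Per kilobase, Aqp12 made up 74.1 ± 1.27% (SD, n = 3) of the RNA of the 6 aquaporins in controls and 8.54 ± 2.28% in mutants. Aqp8 made up 13.2 ± 0.727% in controls and 66.9 ± 3.03% in mutants. The share of Aqp1 was 11.8 ± 1.23% in controls and 21.9 ± 1.57% in mutants, while its own level overlapped between the groups, because the summed level of the 6 was lower. That sum was 239.6, 234.6 and 201.8 CPM per kb in controls 1 to 3 and 105.7, 106.0 and 121.8 CPM per kb in mutants 1 to 3. The gain of Aqp8 was thus smaller than the loss of Aqp12 on this scale, and on the CPM scale the 2 together went from 228.7 ± 22.2 to 127.8 ± 7.83 CPM (SD, n = 3).

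**Figure D2:**
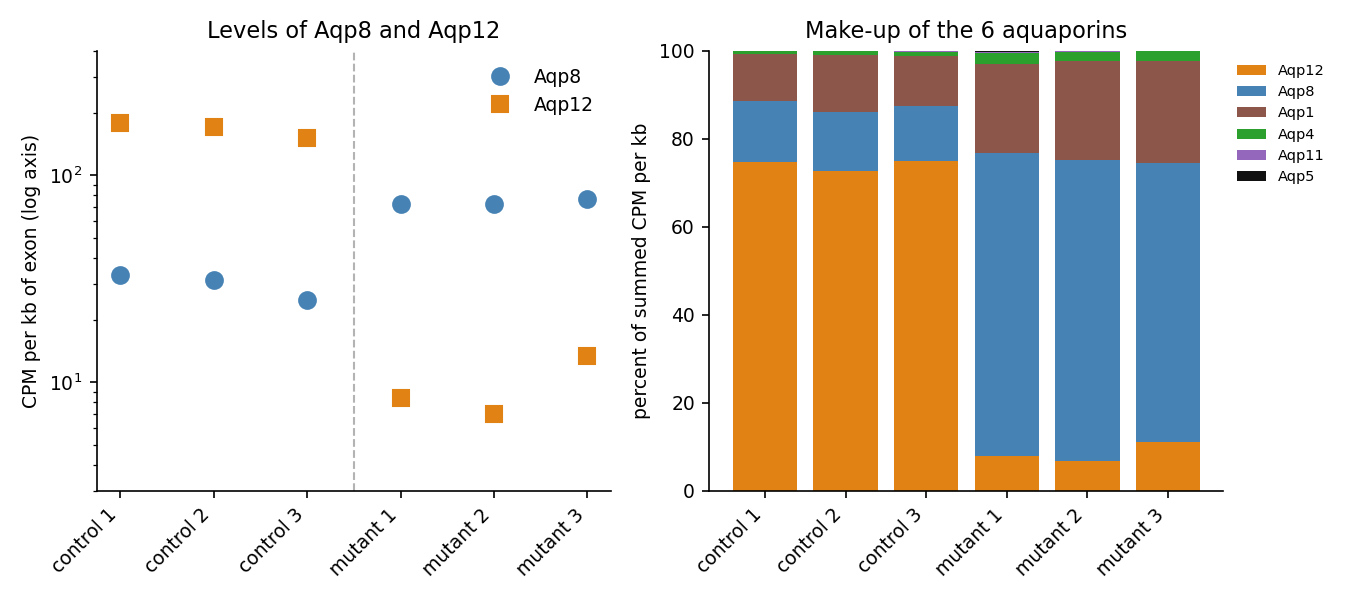
Left, CPM per kb of exon (log axis) of Aqp8 (circles) and Aqp12 (squares) in each library, with a dashed line between the groups. Right, the percent of the summed CPM per kb taken by each of the 6 aquaporins, where Aqp12 fills 72.7% to 75.0% of the bar in controls and 6.63% to 11.1% in mutants.

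Both acinar channels were also set against other acinar RNA. The list held 11 genes, namely the enzymes Cpa1, Cel, Cela2a, Ctrb1, Prss2 and Pnlip and the transcription factors Bhlha15, Rbpjl, Ptf1a, Nr5a2 and Gata4. The list summed to 307609 to 336130 CPM in controls and 250159 to 305473 CPM in mutants, which did not overlap. Of the 11 genes 1 passed the edgeR test and 3 passed by DESeq2, where edgeR called 2.06% of all 13017 genes tested. An unadjusted p under 0.05 was reached by 5 of 11, against 12.8% of all genes tested. The groups did not overlap in 6 of 11, all lower in mutants, against 19.0% of all genes in either direction and 9.86% lower. The median log2 fold change of the list was -0.24. The gene that passed by edgeR was Cel, a bile salt-dependent lipase, with a log2 fold change of -0.93 ± 0.15 (SE, n = 3; edgeR adjusted p = 0.00881), which did not pass without control 2 (0.0518) or mutant 1 (0.0523). Relative to the mean log2 level of the list, Aqp12 went from -3.01 ± 0.08 to -6.81 ± 0.36 (SD, n = 3), a difference of -3.81. Aqp8 went from -4.95 ± 0.17 to -3.34 ± 0.10, a difference of 1.61. Both kept their direction against the list, with groups that did not overlap. Of 6 such relative levels of members these 2 had the smallest exact permutation p, 0.1 each, or 0.3 after Benjamini-Hochberg adjustment over the 6, and the design allows no smaller p.

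Aqp11, the intracellular relative of Aqp12, was near the limit of measurement. It was at 1.95, 1.88 and 2.40 CPM in controls 1 to 3 and at 1.52, 1.51 and 0.997 CPM in mutants 1 to 3, from 10 to 25 counts per library. All 3 mutant values lay below all control values by a small margin, and the 95% Poisson intervals of mutant 1 (0.870 to 2.47 CPM) and control 1 (1.04 to 3.34 CPM) overlapped. The log2 fold change of Aqp11 was -0.64 ± 0.32 (SE, n = 3), which missed the threshold (edgeR adjusted p = 0.460), and the 95% interval from -1.35 to 0.08 includes both no difference and a fall to 0.393 times the control level. Relative to the acinar list it differed by -0.20 between the groups, with overlap (exact permutation p = 0.6, n = 3).

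Aqp1, the duct and vessel channel, kept a similar range in both groups. It was at 67.2, 80.8 and 61.1 CPM in controls 1 to 3 and at 55.7, 62.5 and 73.7 CPM in mutants 1 to 3. The highest value was in control 2 and the lowest in mutant 1, and the groups overlapped. The log2 fold change was -0.12 ± 0.14 (SE, n = 3; edgeR adjusted p = 0.789), and its 95% interval ran from -0.43 to 0.18. With library totals alone the log2 fold change turned to 0.041. The interval allows a level in mutants down to 0.744 times that of controls. Against 10 blood endothelial markers the relative level of Aqp1 differed by -0.13 (exact permutation p = 0.4, n = 3), and against 10 duct markers by 0.03 (exact permutation p = 0.8, n = 3).

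Vessel markers, from cells that make Aqp1, overlapped between the groups. The 10 endothelial genes summed to 296.2 to 310.3 CPM in controls and 297.8 to 318.3 CPM in mutants, and 0 of 10 passed the test by edgeR, DESeq2 or limma, with 0 at an unadjusted p under 0.05. Erythroid RNA varied more, at 21.4 to 152.6 CPM for 3 genes in controls and 14.3 to 37.3 CPM in mutants, and 0 of 3 passed by edgeR, DESeq2 or limma, although all 3 had an unadjusted p under 0.05. The anion exchanger of red cells, Slc4a1, was at 23.1, 77.0 and 7.58 CPM in controls 1 to 3 and at 4.66, 12.5 and 8.48 CPM in mutants 1 to 3. Within the controls Aqp1 and Slc4a1 had the same order, highest in control 2 and lowest in control 3. Within the mutants both were lowest in mutant 1, while Aqp1 was highest in mutant 3 and Slc4a1 in mutant 2. The mesothelial markers summed to 83.9 to 172.5 CPM in controls and 100.1 to 123.6 CPM in mutants, with Krt5 at 0 throughout, and 0 of 5 passed by edgeR, DESeq2 or limma, with 1 at an unadjusted p under 0.05. The part of red cells and mesothelium in the level of Aqp1 was not tested.

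Aqp5, the channel of intercalated ducts, was barely detected. It had 0, 1 and 3 counts in controls 1 to 3 and 8, 3 and 1 counts in mutants 1 to 3. The highest library was mutant 1 with 0.761 CPM, and the groups overlapped. The count of 0 in control 1 allows a level of up to 0.450 CPM for counting error. Aqp5 was removed by the filter on low counts, and without that filter its log2 fold change was 1.37 ± 0.99 (SE, n = 3; edgeR adjusted p = 0.704). No difference was detectable at this depth.

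Aqp4 was low but measurable, and higher in every mutant library than in every control library. It was at 9.90, 11.6 and 12.1 CPM in controls 1 to 3 and at 17.5, 14.2 and 17.6 CPM in mutants 1 to 3, with mutant 2 nearest to the controls. The log2 fold change was 0.55 ± 0.14 (SE, n = 3), not past the threshold (edgeR adjusted p = 0.0978), and its 95% interval ran from 0.23 to 0.87. The call turned on the setting: it passed with library totals alone (0.71, edgeR adjusted p = 0.0331) and without mutant 2 (0.65, 0.0450), and not without control 1 (0.48, 0.205). Glial markers, which accompany Aqp4 in the nervous system, summed to 9.22 to 9.82 CPM in controls and 8.18 to 13.0 CPM in mutants, and 0 of 4 tested passed by edgeR, DESeq2 or limma, with 0 at an unadjusted p under 0.05. Gfap, the defining astrocyte gene, was at most 0.662 CPM. Atp4b, the defining gene of the parietal cell of the stomach, another site of Aqp4, was listed at 0 in all 6 libraries. Atp4a, the catalytic subunit of the same pump, had 6, 8 and 4 counts in controls 1 to 3 and 12, 7 and 15 counts in mutants 1 to 3, with means of 0.722 and 1.15 CPM and groups that overlapped in CPM. Kcne2, a potassium channel subunit of the same cell, had means of 0.430 and 0.712 CPM, also with overlap, and neither gene passed the filter. Gif, of the same list, went the other way, with 2, 3 and 4 counts in controls 1 to 3 and 0 in each mutant. It was not tested either. Nearly all RNA of that list was Tff2, a mucosal peptide that pancreas also makes, and the list summed to 974.7 to 1083 CPM in controls and 774.8 to 858.0 CPM in mutants, with 0 of 1 tested passing by edgeR and 1 by DESeq2.

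The remaining aquaporins were at or near the floor. Aqp2, the vasopressin-regulated channel of the kidney, was listed at 0 in all 6 libraries, Mip, of the eye lens, and Aqp6, of kidney vesicles, had 1 count in 1 library each, and Aqp3, a glycerol channel of epithelia, had at most 3 counts. Aqp9, the glycerol channel of liver and leukocytes, lay between 0 and 8 counts in both groups. Aqp7, the glycerol channel of adipocytes, had 8, 16 and 11 counts in the control libraries and fewer, 5, 4 and 7, in the mutant ones. Its CPM did not overlap between groups, 1.06 to 1.77 against 0.463 to 0.698, and without the filter its edgeR adjusted p was 0.337. The adipocyte marker Adipoq was listed at 3.00, 10.04 and 14.6 CPM in the 3 control libraries and at 0, 2.43 and 0 CPM in the mutant ones. The 7 adipocyte genes summed to 20.3 to 52.3 CPM in controls and 19.3 to 22.8 CPM in mutants. Lipe and Pnpla2 made up most of the mutant sum, with log2 fold changes of -0.14 and -0.16. Adipoq, Plin1 and Cidec had -3.65, -2.57 and -2.86, and the median of the 5 tested was -2.57. Of these 5 tested 0 passed by edgeR, DESeq2 or limma, and 3 had an unadjusted p under 0.05 by edgeR. The part of fat cells in Aqp7 was not tested.

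Of the 6 members, 5 passed the filter, and of these 1 rose, 1 fell and 3 did not pass the test, where 2.06% of the 13017 genes tested were called, 0.545% higher and 1.51% lower. In 4 of the 5 the libraries of the groups did not overlap, which held for 19.0% of all genes tested, 9.15% higher and 9.86% lower in mutants. Aqp8 and Aqp4 were the higher ones and Aqp12 and Aqp11 the lower ones. Because the members were chosen with earlier results of these data known, these counts beside all genes are a description and no test. The median log2 fold change of the 5 was -0.12 against 0.00448 for all genes. With library totals alone the median of all genes moved to 0.17, and Aqp8 and Aqp12 kept their direction and their call there, at 1.49 and -3.95.

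**Figure D3:**
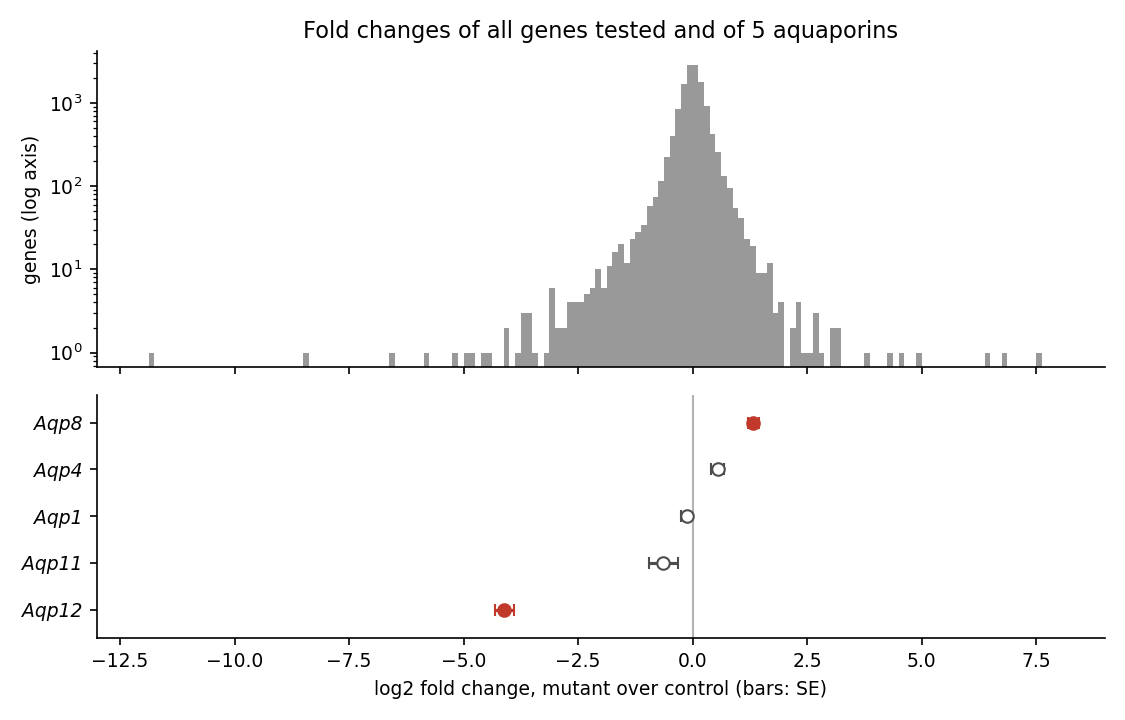
Top, number of genes (log axis) by log2 fold change of mutant over control for all 13017 genes tested. Bottom, the 5 tested aquaporins with their SE, filled where the edgeR adjusted p was under 0.05: Aqp12 at -4.11 and Aqp8 at 1.32, with Aqp11, Aqp1 and Aqp4 open between them.

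Genes that move the salt which water follows did not pass the test. Of 8 acinar ion transport genes, which include the chloride importer Slc12a2 and the calcium-gated chloride channel Ano1, 0 passed by edgeR, DESeq2 or limma and 1, Slc12a2, had an unadjusted p under 0.05. Slc12a2 had a log2 fold change of -0.47 ± 0.16 (SE, n = 3; edgeR adjusted p = 0.223) and Ano1 of -0.29 ± 0.14 (0.438). Of 14 duct bicarbonate and chloride genes 10 were tested and 0 passed by edgeR, DESeq2 or limma, with 5 at an unadjusted p under 0.05. Among the 5 was Car2, with -1.37 ± 0.60 (edgeR adjusted p = 0.379) and overlap between the groups. Its libraries had the same order within each group as those of the red cell gene Slc4a1. The part of red cells in Car2 was not tested. Of the 10 tested, Kcnq1 had the smallest p, with -0.58 ± 0.15 (SE, n = 3; edgeR adjusted p = 0.0947). It was at 20.3, 19.8 and 21.8 CPM in controls 1 to 3, against 12.9, 11.7 and 16.8 CPM in mutants 1 to 3. The chloride channel Cftr had 0.78 ± 0.28 (edgeR adjusted p = 0.264) and the exchanger Slc26a6 had -0.57 ± 0.17 (0.153). Control and mutant CPM ranges were separate for 5 of these 10 duct genes, with Cftr higher and Kcnq1 lower. Among all genes tested the ranges were separate for 19.0%. Of 12 genes of cell volume control and the osmotic response 10 were tested and 0 passed by edgeR, DESeq2 or limma, with 4 at an unadjusted p under 0.05. Across all genes tested that p was reached by 12.8%. Control and mutant CPM ranges were separate for 4 of the 10 tested genes of this list, against 19.0% of all genes tested. Hspa4l, a chaperone induced by osmotic stress, was higher in every mutant library, with 0.82 ± 0.20 (edgeR adjusted p = 0.0813). So were the taurine transporter Slc6a6, with 0.28 ± 0.10 (0.230), and Slc5a3, with 0.21 ± 0.21 (0.767). Akr1b3, also of this list, was listed at 0 in all 6 libraries. Lrrc8e, a subunit of the volume-regulated anion channel, was lower in every mutant library, with -0.64 ± 0.28 (edgeR adjusted p = 0.377). The other subunits did not share this fall. Lrrc8b had 0.39 ± 0.16 (edgeR adjusted p = 0.330), and Lrrc8a, Lrrc8c and Lrrc8d had -0.19, 0.0085 and -0.07, all with overlap between the groups. Nfat5, the transcription factor of hypertonic stress, had -0.06 ± 0.11 (edgeR adjusted p = 0.888).

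Among 10 secretagogue receptor and calcium release genes, 0 rose and 2 fell by edgeR, where 0.545% of all genes tested were called higher and 1.51% lower, and 4 of 10 had an unadjusted p under 0.05. Vipr1, a receptor for vasoactive intestinal peptide, was at 34.8, 24.9 and 31.2 CPM in controls 1 to 3 and at 7.61, 10.3 and 10.6 CPM in mutants 1 to 3, with a log2 fold change of -1.67 ± 0.17 (SE; edgeR adjusted p = 0.000612). The mutant libraries all lay well below the controls. Chrm3, the muscarinic receptor through which acetylcholine drives acinar secretion, was at 12.5, 13.8 and 14.01 CPM in controls 1 to 3 and lower, at 8.56, 8.80 and 9.17 CPM, in mutants 1 to 3. Its log2 fold change of -0.61 ± 0.13 was close to the threshold (edgeR adjusted p = 0.0457) and did not pass when control 1 (0.0574), mutant 2 (0.0802) or any other single library was left out, up to 0.187. Chrm1, another muscarinic receptor, was higher in every mutant library than in every control, with 1.00 ± 0.34 (edgeR adjusted p = 0.228). For Cckar, the cholecystokinin receptor, the log2 fold change was -0.08 ± 0.14 (edgeR adjusted p = 0.875). The medians of the 4 lists lay between -0.09 and -0.03, against 0.00448 for all genes tested.

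**Figure D4:**
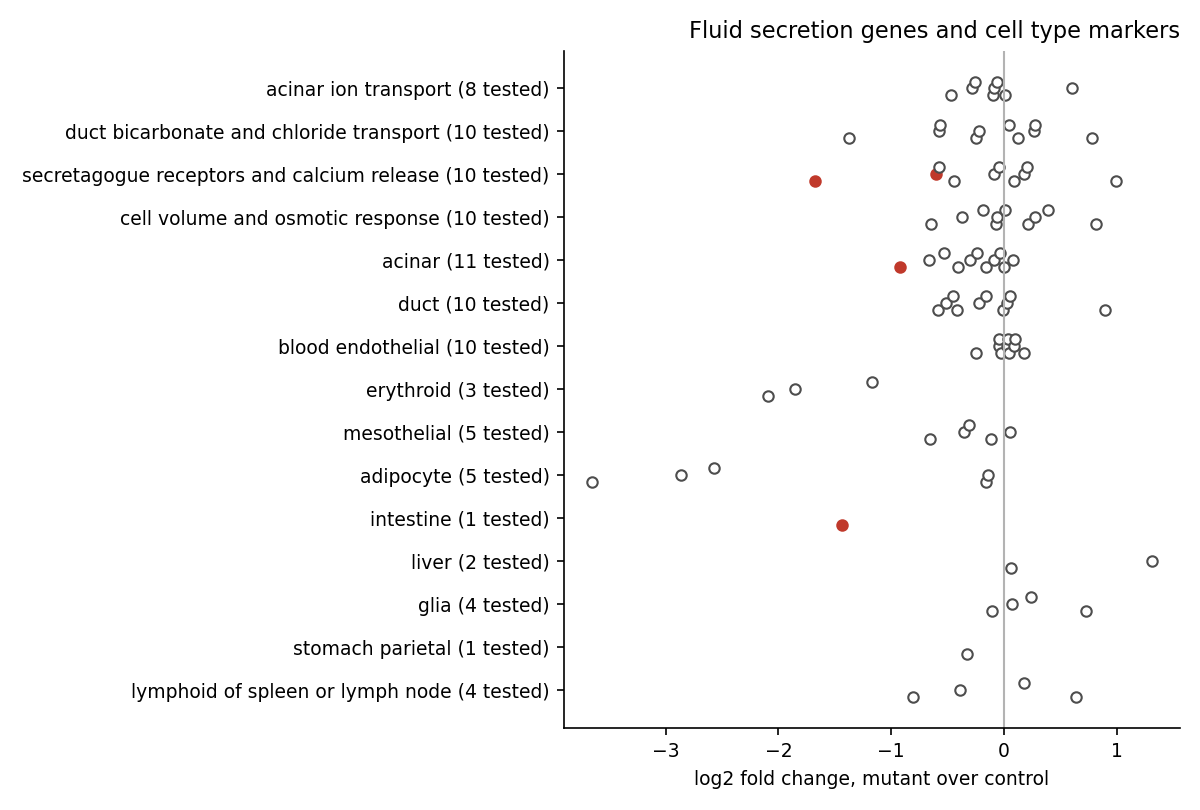
Log2 fold change of mutant over control for each tested gene of 4 fluid secretion lists and 11 marker lists, 1 circle per gene, filled where the edgeR adjusted p was under 0.05. Vipr1 and Chrm3 are filled among secretagogue genes, Cel among acinar markers and Vil1 among intestine markers.

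The genes whose pattern over the 6 libraries was most like that of each changed member were found by the root mean square difference of centred log2 levels, over 10031 genes with a mean of at least 5 CPM. For Aqp8 these were Gm106 (0.114), Cp, which encodes the copper-carrying ferroxidase ceruloplasmin (0.117), and Itih2, a plasma protein that binds hyaluronan (0.157). Cp was at 41.7, 37.2 and 36.4 CPM in controls 1 to 3 and at 84.9, 101.9 and 97.1 CPM in mutants 1 to 3. Its means were 38.4 ± 2.88 and 94.6 ± 8.75 CPM (SD, n = 3), against 47.0 ± 6.72 and 117.4 ± 4.16 CPM for Aqp8. Cp thus spread less than Aqp8 in controls and more in mutants. For Aqp12 the nearest genes were farther off, namely Pga5, a pepsinogen (0.376), Zg16, a lectin of the zymogen granule (0.430), and Stra6, a retinol receptor (0.474). Pga5 was at 39.3, 33.5 and 39.3 CPM in the control libraries, against 2.28, 2.43 and 2.09 CPM in mutants 1 to 3, without the higher value that Aqp12 had in mutant 3. Zg16, at 60.5, 60.8 and 139.2 CPM in mutants 1 to 3, did have its highest mutant value there. These genes were chosen for their likeness, and their fold changes are no separate evidence.

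On the genome no neighbour of the 2 changed members passed the test in the same direction as the member, apart from Gpr35 when mutant 2 was left out. Aqp12 lies on chromosome 1 at 93006334 to 93012269 (plus strand, GENCODE M21 on GRCm38), with 3 exons. The nearest tested genes were Gpr35, ending 19942 bases before it, with a log2 fold change of -1.47 ± 0.58 (SE, n = 3; edgeR adjusted p = 0.313), and Kif1a, starting 3194 bases after it, with 0.23 ± 0.28 (0.811). Gpr35 was low, with 0.380, 1.51 and 0.199 CPM in mutants 1 to 3, and passed the test without mutant 2 (-2.62, edgeR adjusted p = 0.0278). Aqp8 lies on chromosome 7 at 123462291 to 123468004 (plus strand). Its neighbour before, Lcmt1, a methyltransferase of protein phosphatase 2A, went opposite to Aqp8, with -0.62 ± 0.12 (edgeR adjusted p = 0.0316). Lcmt1 passed without mutant 2 (edgeR adjusted p = 0.0379) and did not pass without any other single library (0.0780 to 0.142). Zkscan2, starting 7379 bases after Aqp8, had -0.19 ± 0.37 (edgeR adjusted p = 0.900). Exons of the 6 members overlapped no other annotated gene, and at most 0.233% of their 50-base stretches, in Aqp11, occurred in another gene.

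Aqp8 and other members are also made in organs next to the pancreas. Of 6 intestine markers in the files, Fabp2, Cdx1 and Cdx2 were listed at 0 in all 6 libraries, and the list summed to 7.20 to 8.45 CPM in controls and 2.78 to 3.29 CPM in mutants, nearly all of it Vil1, a brush border protein. Vil1 had a log2 fold change of -1.44 ± 0.19 (SE, n = 3), the 1 gene of that list tested (edgeR adjusted p = 0.00336). Lct and Slc26a3, also of that list, had at most 5 and 2 counts in a library. Which cells made the Vil1 RNA was not tested, so its fall is no measure of intestine in the samples. Liver markers summed to 103.3 to 146.9 CPM in controls and 113.9 to 195.6 CPM in mutants, and 0 of 2 tested passed by edgeR, DESeq2 or limma, with 1, Alb, at an unadjusted p under 0.05. Nearly all of that sum was Ttr, which islets also make, with means of 121.6 and 126.6 CPM. Alb was at 12.3, 7.17 and 7.68 CPM in controls 1 to 3 and at 15.5, 13.0 and 37.5 CPM in mutants 1 to 3, higher in every mutant as Aqp8 was, with a log2 fold change of 1.31 ± 0.38 (SE, n = 3; edgeR adjusted p = 0.150). Apoa2 had 0 counts in each control and 5, 3 and 14 counts in mutants 1 to 3. Cyp2e1, an abundant hepatocyte gene, was at 0 in 5 libraries and 0.399 CPM in mutant 3. The 10 duct markers summed to 869.5 to 986.9 CPM in controls and 656.3 to 886.4 CPM in mutants. By edgeR and by limma 0 of 10 passed, and 5 had an unadjusted p under 0.05 by edgeR, against 12.8% of all genes tested. By DESeq2, which called 336 genes among all tested, 3 passed, namely Krt19, Spp1 and Cldn4. Their directions differed, with edgeR log2 fold changes of -0.59 for Krt19, -0.45 for Spp1 and 0.89 for Cldn4. The groups did not overlap in 4 of 10, against 19.0% of all genes tested. Of the lymphoid genes 4 were tested and 0 passed by edgeR, DESeq2 or limma, with 0 at an unadjusted p under 0.05. The part of these cell types in the levels of the aquaporins was not tested.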

How the data were processed

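The authors deposited whole-number counts per gene symbol, 1 file per library, per the file headers. The submitters' processing notes name the build mm10 and, without roles, DESeq2, HTSeq 0.6.1p1, STAR and cutadapt 1.13. No source used here gives the annotation or strand setting. Groups and replicate numbers came from the sample titles.

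Counts entered edgeR 4.0.16 (R 4.3.3; quasi-likelihood test, TMM scaling, filterByExpr, no covariate), which was checked on simulated data. Benjamini-Hochberg adjustment ran over 13017 genes, threshold 0.05. The SE of a log2 fold change was obtained from its F statistic. Exact permutation tests were two-sided. CPM used TMM-scaled totals. Relative levels used log2(CPM + 0.5) and list genes with a mean of at least 1 CPM. Lengths and positions are from GENCODE M21, and promoters from RefSeq on GRCm38.p6.

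Named were the 12 aquaporins, up to 4 called genes per list, the 3 genes most like each called member and the nearest tested gene on each side. Other list genes were named after their values were seen. Erythroid symbols matched 3 of 7, and intestine 6 of 7. Members and lists were chosen with earlier results of these data known. Alternatives were other scalings, filters, DESeq2 1.42.0, limma 3.58.1 voom, robust dispersion, pseudocounts, a replicate block and leaving out each library.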

Additional observations from a re-analysis of the deposited data

How the results depend on the processing

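Aqp12 and Aqp8 kept their direction and their call in each of 15 alternatives, with log2 fold changes of -4.43 to -3.93 and 1.21 to 1.49 and adjusted p of at most 0.000198 and 0.00388. With library totals alone Aqp1 turned to 0.041, Aqp4 passed at 0.71 and the summed CPM of the members differed by -71.6 in place of -101.8. Without single libraries, Aqp4 ranged from 0.48 to 0.65, Zkscan2 from -0.39 to 0.0073 (without control 3), and the level of Aqp1 relative to duct markers turned to -0.084 without control 3 and -0.073 without mutant 2, with a range over single libraries of -0.084 to 0.157. The number of called genes in the other aquaporin and pathway lists was 1 in place of 2 with upper quartile scaling, DESeq2 or the replicate block, and 1 to 2 without single libraries. Over all genes the number called was 268, and 125 to 301 without single libraries (control 2 left out gave 125, control 3 gave 140, mutant 1 gave 139 and mutant 3 gave 178), an alternative added after the data were seen.

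Same-numbered libraries of the 2 groups had correlations of deviations of 0.0798, 0.0289 and -0.0708, and control 3 correlated best with mutant 2 (0.111). Deviations were taken from means of 3 libraries, which ties these correlations to each other. They cannot tell whether same-numbered libraries were paired. With the replicate block Aqp12 had -4.14 (edgeR adjusted p = 1.87e-05), Aqp8 had 1.33 (0.00105), and 241 genes were called, while Cel did not pass (-0.93, 0.114). The blocked exact permutation p of the Aqp8 to Aqp12 ratio was 0.25, the smallest that 3 pairs allow. Aqp5, with at most 8 counts in a library, was not tested, and Aqp11 rested on 10 to 25 counts per library.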
